A study of Pleurotus tuoliensis with 9 samples.

Results

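STE3-type pheromone receptors are the membrane proteins with which fungi sense peptide pheromones, and 3 unigenes of *Pleurotus tuoliensis* described as such, gene_18486, gene_7883 and gene_10118, were followed across 9 RNA-seq libraries. They were taken by ID from 13953 unigenes, with their descriptions and their counts at the 3 temperatures already known. Their levels and changes are therefore given as a description, with standard errors (SE) but no test. All libraries came from mycelia of the strain Zhongnong No.1, grown in the dark on potato dextrose agar at 25 °C for 9 days. From day 10 the plates stayed at 25 °C (control, CK) or were moved to 32 °C (moderate heat stress, MHT) or 36 °C (severe heat stress, SHT), and mycelia were collected on day 13 from 3 plates per group. Every plate was inoculated from 1 parent plate, which makes the replicates separate cultures within 1 strain. The labels give no other cell type. In a bulk library, fewer expressing cells and less RNA per cell cannot be told apart.

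A STE3-type receptor spans the membrane several times and binds a lipid-modified pheromone. In *Saccharomyces cerevisiae* the protein Ste3 reads the a-factor of cells of the opposite mating type. In mushrooms, receptors of this kind and their pheromones are encoded at the B mating-type locus, and further copies outside the mating-type genes are known. Ligand binding releases a heterotrimeric G protein, which signals through a kinase cascade to transcription factors, and in mushrooms this pathway takes part in nuclear migration and clamp cell fusion.

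The total count was 3925786 to 5014053 in CK, 4865930 to 6180053 in MHT and 4764179 to 5917149 in SHT. Values are CPM, counts relative to the library's total on a common scale, adjusted by TMM, a factor per library that rests on most genes not changing. They are not divided by gene length, so levels are compared between groups and not between unigenes. MHT replicate 3 and SHT replicate 2 stood somewhat apart, with mean distances of 73.4 and 66.7 to their own group in log2 CPM, against 52.8 to 59.5 for the other 7 libraries. Tubulins, hydrophobins and glyceraldehyde-3-phosphate dehydrogenase were used as mycelium surface and housekeeping markers. Of these unigenes 9 of 11 were counted in every library. The summed level of the 11 was 1993 to 2049 CPM in CK, 1671 to 2288 in MHT and 1072 to 1410 in SHT. In MHT&CK, which stands for MHT over CK, 1 of the 9 was a differentially expressed gene (DEG), with an absolute log2 fold change (log2FC) above 1 and, by the quasi-likelihood test in edgeR, an adjusted p below 0.05. It was lower, as were the 3 DEGs in SHT&CK (2 by DESeq2) and the 1 in SHT&MHT, while 8.17% of all unigenes were DEGs in MHT&CK, 21.7% in SHT&CK and 5.65% in SHT&MHT. These DEGs were all hydrophobins: gene_6238 in MHT&CK, gene_6238, gene_8573 and gene_22549 in SHT&CK, and gene_22549 in SHT&MHT. No tubulin or glyceraldehyde-3-phosphate dehydrogenase was a DEG. Gene_22549 had means of 589 CPM in CK, 323 CPM in MHT and 86.5 CPM in SHT. The part of these markers in the values of the receptors was not tested.

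The search of the descriptions found 10 unigenes named as STE3-domain proteins or pheromone receptors, the 3 above and 7 others. Several of them come as copies. Gene_18486 and gene_7883 have the same best-matching protein, a STE3-domain protein of *Pleurotus eryngii*. Gene_18485 and gene_7886 share another *P. eryngii* STE3-domain protein, and gene_10065 and gene_23233 share a B mating type pheromone receptor of *P. ostreatus*. The copies lie in corresponding blocks of IDs. Gene_18486 stands between gene_18485 and gene_18489, and gene_7883 between gene_7886 and gene_7880, where gene_18489 and gene_7880 again share a best match, an uncharacterized protein. Whether ID order is genome order is not stated. Of the tested unigenes, 33.7% shared their best match with another, and how reads that fit more than 1 copy were counted is not given in the sources used here, so values of a single copy are uncertain. The 3 remaining family members are gene_6768, a STE3-like pheromone receptor, and gene_11942 and gene_7884, both described as a-factor receptors.

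Gene_18486 was at 5913, 3469 and 4172 CPM in the 3 CK libraries, 719, 721 and 398 CPM in MHT, and 196, 226 and 206 CPM in SHT. The groups did not overlap, and each step in temperature brought a lower level. At 25 °C this unigene alone took 0.327% to 0.514% of all counts in a library, and at 36 °C 0.0216% to 0.0251%. Its mean was 13.6% of the CK mean in MHT and 4.63% in SHT, and the log2FC was -2.88 (SE 0.297) in MHT&CK, -4.43 (SE 0.319) in SHT&CK and -1.55 (SE 0.284) in SHT&MHT. Only 12 of the 13018 unigenes tested had a lower log2FC in MHT&CK, 6 in SHT&CK and 143 in SHT&MHT. The spread among plates was itself large in CK, where the mean and SD were 4518 ± 1258 CPM (n = 3), against 612 ± 186 CPM in MHT and 209 ± 15.4 CPM in SHT.

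Gene_7883, the copy with the same best match, had the same order of groups at a lower count. It was at 631, 353 and 461 CPM in CK, 89.8, 88.9 and 62.7 CPM in MHT and 37.0, 40.5 and 26.5 CPM in SHT. The groups again did not overlap. MHT stood at 16.7% and SHT at 7.20% of the CK mean, log2FCs of -2.58 (SE 0.255) and -3.79 (SE 0.271), and SHT&MHT gave -1.21 (SE 0.250). With both copies summed as 1 unigene, an alternative chosen after seeing the data, the log2FC was -2.85 in MHT&CK, -4.36 in SHT&CK and -1.51 in SHT&MHT.

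Gene_10118, described as a fungal pheromone STE3 G-protein-coupled receptor, was a low-count unigene, with 24 to 73 counts per library. It was at 17.9, 15.5 and 15.1 CPM in CK, 8.58, 9.92 and 5.63 CPM in MHT, and 5.06, 5.49 and 4.44 CPM in SHT. All 3 groups were apart, MHT from SHT by a narrow margin. Its log2FC was -0.99 (SE 0.248) in MHT&CK, -1.68 (SE 0.259) in SHT&CK and -0.69 (SE 0.263) in SHT&MHT. Summed over libraries, its 203 counts in CK gave 16.0 CPM with an exact 95% Poisson interval of 13.8 to 18.3, its 135 counts in MHT gave 8.14 (6.83 to 9.64) and its 86 counts in SHT 5.0 (4.0 to 6.17), intervals that cover counting error only.

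**Figure D1:**
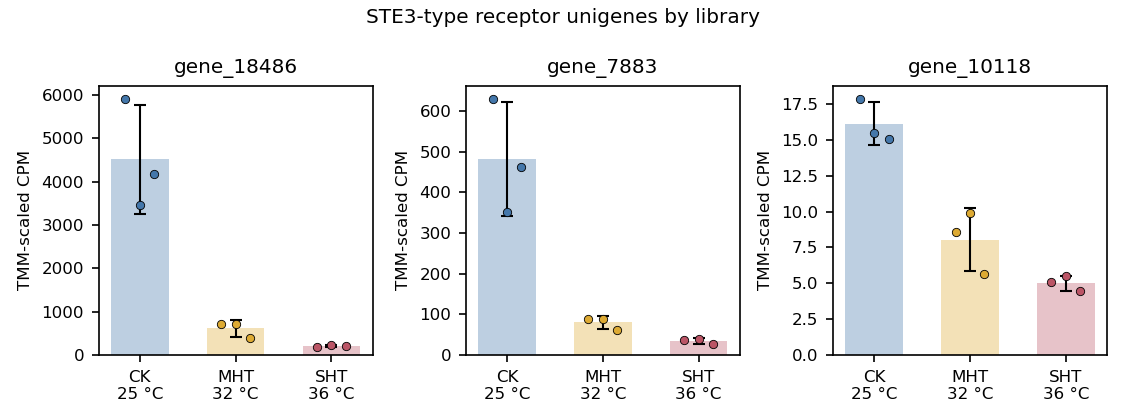
TMM-scaled CPM of gene_18486, gene_7883 and gene_10118 (y axes, each from 0) in CK, MHT and SHT. Points are the 3 libraries of a group, bars their mean and error bars the SD. For each unigene every MHT library lies below every CK library and every SHT library below every MHT library.

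All 3 unigenes thus stood lower without overlap in each comparison. Among all unigenes tested 19.1% were lower without overlap in MHT&CK, 28.3% in SHT&CK and 12.6% in SHT&MHT. Nothing is read from that count, since the 3 were chosen on these comparisons. Within groups, CK replicate 1 was the highest CK library for each of them, MHT replicate 3 the lowest MHT library and SHT replicate 2 the highest SHT library. The last 2 are the libraries that stood apart over all unigenes, and their part in these orders was not tested.

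The 7 family members outside the 3 were found by their descriptions, and 6 of them had a count in every library and were tested. Of the 6, 2 fell and 0 rose in MHT&CK, where 4.32% of all unigenes tested fell and 3.85% rose. In SHT&CK again 2 fell and 0 rose, beside 10.9% and 10.8% of all. In SHT&MHT 0 of the 6 were DEGs by edgeR and 0 by DESeq2, with 1 at an unadjusted p under 0.05, while 5.65% of all unigenes were DEGs (2.79% higher, 2.87% lower). The median log2FC of the 6 was -0.72 in MHT&CK, -0.78 in SHT&CK and 0.13 in SHT&MHT, against -0.0015, 0.012 and -0.0023 over all unigenes.

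The 2 that fell were the neighbours of the leading members. Gene_18485, next to gene_18486 in ID, was at 379, 271 and 373 CPM in CK, 72.6, 82.2 and 97.6 CPM in MHT and 48.0, 79.2 and 54.4 CPM in SHT. Both heat groups lay below CK without overlap, while SHT and MHT overlapped. Its log2FC was -2.02 in MHT&CK (SE 0.228, adjusted p = 2.53e-04) and -2.50 in SHT&CK (SE 0.232, adjusted p = 2.89e-05), and it did not pass in SHT&MHT (-0.48, adjusted p = 0.178).

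Gene_7886, its copy, was at 63.3, 47.7 and 58.7 CPM in CK, 11.7, 18.0 and 23.3 CPM in MHT and 17.3, 26.3 and 15.2 CPM in SHT. It too fell against CK in both treatments, with a log2FC of -1.68 in MHT&CK (SE 0.274, adjusted p = 0.00230) and -1.53 in SHT&CK (SE 0.271, adjusted p = 0.00122). Between the treatments the value was 0.15 (adjusted p = 0.740), and its sign turned without MHT replicate 1 (-0.08) or SHT replicate 2 (-0.12). In this pair MHT replicate 3 was the highest MHT library, whereas for gene_18486 and gene_7883 it was the lowest.

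The remaining receptors gave smaller or unclear differences. Gene_10065, the B mating type pheromone receptor, was at 38.7, 51.3 and 54.6 CPM in CK, 38.1, 35.5 and 23.7 CPM in MHT and 35, 24.2 and 20.2 CPM in SHT, with a log2FC of -0.86 (SE 0.250, adjusted p = 0.0167) in SHT&CK that missed the fold threshold. It met that threshold without CK replicate 1 (-1.0) or SHT replicate 1 (-1.13). Gene_11942, an a-factor receptor by description, had 18 to 30 counts per library and log2FCs of -0.79 (adjusted p = 0.0749) in MHT&CK and -0.69 (adjusted p = 0.0641) in SHT&CK.

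The STE3-like pheromone receptor gene_6768 and gene_23233 were the family members whose mean was highest in SHT. Gene_6768 was at 12.6, 5.49 and 12.4 CPM in SHT, against 5.61, 5.41 and 4.82 CPM in MHT, a log2FC of 0.94 (SE 0.336, adjusted p = 0.0900) that passed only without SHT replicate 2 (1.23). In CK it was at 5.57, 9.32 and 9.83 CPM. Gene_23233, the second copy of the B mating type receptor, had 2 to 18 counts per library, too few to show a difference, with log2FCs of -0.45 for MHT&CK, 0.07 for SHT&CK and 0.52 in SHT&MHT. Gene_7884 had 1 count in CK replicate 1 and none in the other 8 libraries, which allows up to 3 counts in each of them, and was not tested.

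**Figure D2:**
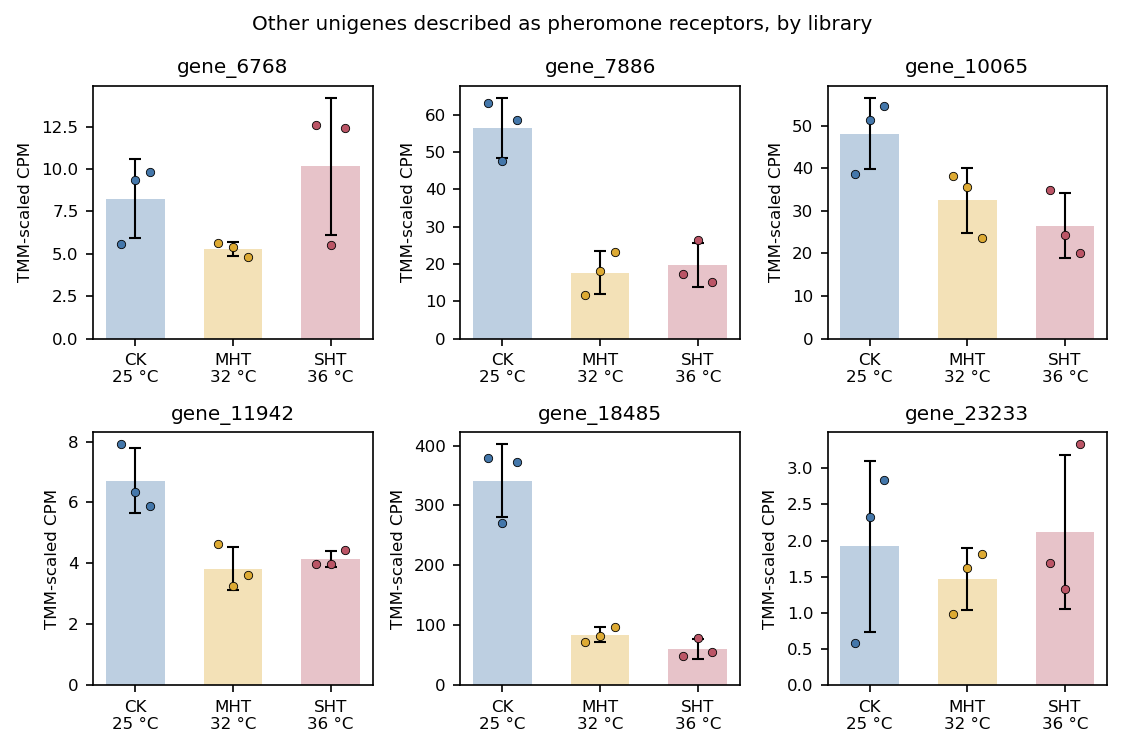
TMM-scaled CPM (y axes, each from 0) of the 6 tested receptor unigenes outside the 3, in CK, MHT and SHT. Points are libraries, bars the mean of 3 and error bars the SD. Gene_18485 and gene_7886 show CK above both heat groups, and gene_6768 and gene_23233 show overlapping groups.

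Across the 9 tested receptors the log2FCs in MHT&CK were all below 0, between -2.88 and -0.45. In SHT&CK they ran from -4.43 to 0.29 and in SHT&MHT from -1.55 to 0.94. Whether gene_18486 and gene_7883 differed from the other receptors in the step from 32 °C to 36 °C was not tested.

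**Figure D3:**
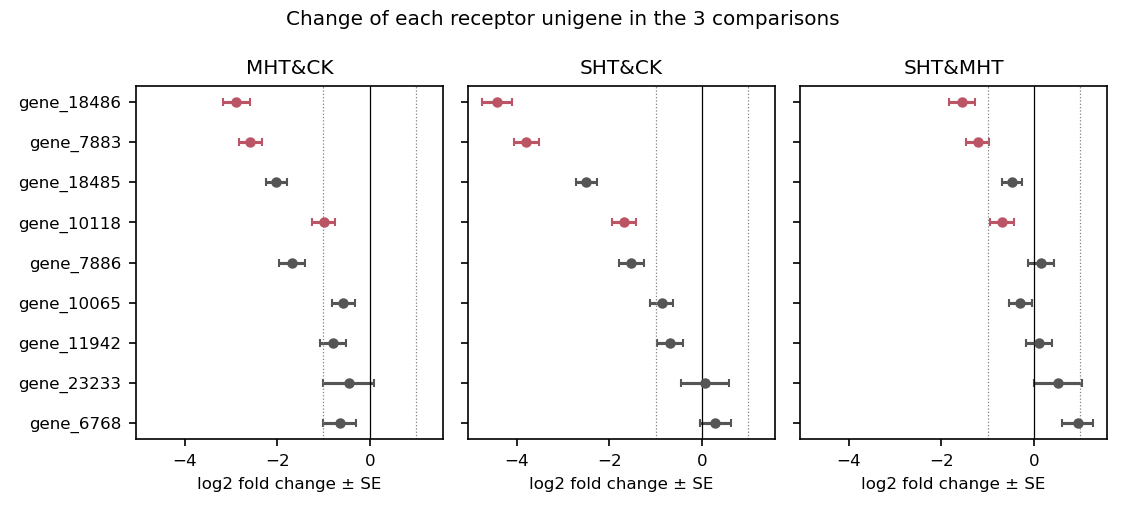
Log2FC (x axis) of the 9 tested receptor unigenes (rows) in the comparisons MHT&CK, SHT&CK and then SHT&MHT, with standard errors from the fit over all libraries as bars. Gene_18486, gene_7883 and gene_10118 are red, the other 6 grey, and dotted lines mark -1 and 1. Gene_18486 is lowest in every comparison.

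In both STE3-domain pairs the less counted copy held a larger share of the pair's counts in SHT than in CK, without overlap. Of the counts of gene_7883 and gene_18486 together, gene_7883 held 9.64%, 9.23% and 9.96% in CK, 11.1%, 11% and 13.6% in MHT and 15.9%, 15.2% and 11.4% in SHT. Such a share does not depend on how libraries are scaled. Every heat library lay above every CK library, by 4.54 percentage points in the mean of SHT and 2.29 points in that of MHT, and SHT and MHT overlapped. Exact 95% binomial intervals were 8.82% to 10.4% over the CK libraries and 9.68% to 17.8% over the SHT libraries, and cover counting error only.

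In the second pair, gene_7886 held 14.3%, 15% and 13.6% of the counts of gene_7886 and gene_18485 in CK, 13.9%, 18.0% and 19.3% in MHT, and 26.5%, 25.0% and 21.8% in SHT. SHT lay above CK by 10.2 percentage points and above MHT by 7.38 points without overlap (2-sided exact permutation test, p = 0.1 each, the smallest p that 3 libraries against 3 allow, and 0.45 after Benjamini-Hochberg adjustment over 9 tests). MHT and CK overlapped (difference of 2.77 points, exact permutation p = 0.3, adjusted 0.563). For the adjacent pair of the uncharacterized protein, gene_7880 held 81.7% ± 1.69 of the summed counts in CK, 83.5% ± 2.28 in MHT and 81.5% ± 4.41 in SHT (mean ± SD, n = 3), and the exact permutation p was 1.0 for SHT&CK, 0.4 for MHT&CK and 0.5 for SHT&MHT. The receptor pair of gene_23233 and gene_10065 had too few counts, with shares of gene_23233 of 1.49% to 14.2% over the libraries and exact permutation p of 0.2 to 0.5.

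**Figure D4:**
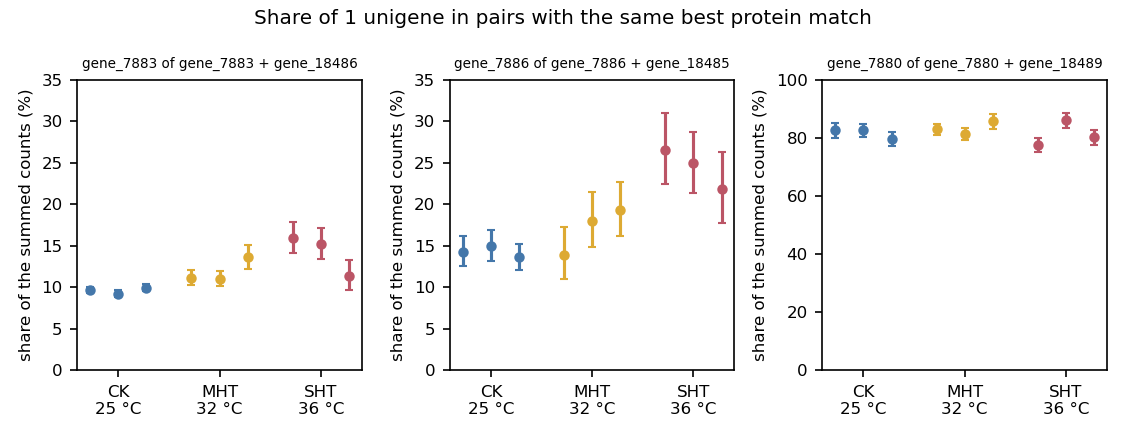
Share of the summed counts (y axis, percent) held by gene_7883, gene_7886 and gene_7880 in pairs with the same best protein match, in the 9 libraries, with exact 95% binomial intervals as bars. The first 2 axes end at 35% and the third at 100%. The share of gene_7886 is 21.8% to 26.5% in SHT and 13.6% to 15% in CK. That of gene_7880 ranges from 77.7% to 86.3%, with both ends in SHT.

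All such pairs of unigenes with a common best match give a rough scale for these gaps. Over 201 pairs of tested unigenes with a common best match and ID numbers more than 100 apart, the median absolute difference in log2FC between copies was 0.30 in MHT&CK, 0.35 in SHT&CK and 0.29 in SHT&MHT. These pairs include both STE3-domain pairs and were not matched for count, so low counts may widen the differences of some. Gene_7883 and gene_18486 differed by 0.30 in MHT&CK, 0.64 in SHT&CK and 0.33 in SHT&MHT, more than 50.7%, 77.1% and 56.7% of the pairs. Gene_7886 and gene_18485 differed by 0.34, 0.97 and 0.63 in the same order, more than 53.7%, 85.6% and 77.6%.

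The neighbours in ID with the common uncharacterized match were not called in either heat group against CK. Gene_18489 was at 29.5 CPM in SHT, against 45.1 CPM in CK, and gene_7880 at 127 CPM, against 201 CPM, with log2FCs of -0.61 (adjusted p = 0.145) and -0.67 (adjusted p = 0.0221) that did not make them DEGs. In MHT&CK the log2FCs were -0.23 and -0.10. Gene_18483, described as a dye-decolorizing peroxidase, and gene_10115, an uncharacterized neighbour of gene_10118, had means of at most 0.821 and 1.48 CPM and were not tested.

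Profiles were compared with each member by Pearson correlation of log2 CPM over the 9 libraries. Of the 13953 unigenes, 10744 had no informative description and are not named. The closest with such a description came from different functions. Among all tested, those named below ranked 2, 8 and 9 for gene_18486, 2, 4 and 9 for gene_7883, and 6, 11 and 15 for gene_10118. Points in such a correlation fall into 3 temperature groups and share library and scaling, so it is a description. For gene_18486 the closest with an informative description were its copy gene_7883 (r = 0.995), gene_17507, a protein kinase domain protein (r = 0.989), and gene_1032, an RNA-binding domain protein (r = 0.988). For gene_7883 they were gene_18486, gene_17507 (r = 0.992) and gene_2327, an acetoin reductase family protein (r = 0.987). For gene_10118 they were gene_7755, a glycosyltransferase of family 22 (r = 0.990), gene_2327 (r = 0.988) and gene_17507 (r = 0.987). Likeness in profile was not likeness in size. Gene_17507 had means of 999 CPM in CK, 318 CPM in MHT, and 185 CPM in SHT, which is -2.43 in log2FC in SHT&CK, while gene_1032, at 1182, 849 and 683 CPM, had -0.79. Of the 13018 unigenes, 237 had r above 0.95 with gene_18486, 221 with gene_7883 and 259 with gene_10118. Which unigenes came closest depended on the measure. Of the 50 most alike by Pearson correlation, those also in the top 50 by Spearman correlation numbered 10 for gene_18486, 11 for gene_7883 and 9 for gene_10118. Gene_10118 itself reached 0.982 with gene_18486, and gene_18485 0.955, whereas gene_6768 was at -0.11.

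Besides the receptors, 30 unigenes with descriptions that name parts of the pheromone response or of related signalling were found, and all 30 were tested. They are called pathway unigenes here. Among them are 3 other G protein-coupled receptors, 2 endoproteases and 2 homeodomain proteins, so the 30 are not all downstream of the receptors. In MHT&CK 0 were DEGs by edgeR and 0 by DESeq2, with 7 at an unadjusted p under 0.05, beside 8.17% of all unigenes. In SHT&CK 6 fell and 0 rose, where 10.9% of all unigenes fell and 10.8% rose. The share called, all of it lower, was 20%, beside 21.7% of DEGs among all unigenes in both directions together. In SHT&MHT 1 fell and 0 rose, where 2.87% of all unigenes fell and 2.79% rose. DESeq2 called as many in each of the pathway lists as edgeR did. The median log2FC of the 30 was -0.09 in MHT&CK, -0.22 in SHT&CK and -0.18 in SHT&MHT.

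Heterotrimeric G proteins pass the signal of the receptor into the cell. Descriptions gave 7 unigenes as subunits of such proteins, among them gene_14920, a subunit beta-2-like protein. Of the 7, 1 fell and 0 rose in SHT&CK, where 10.9% of all unigenes fell. In MHT&CK and SHT&MHT 0 were DEGs by edgeR, with 1 and 2 at an unadjusted p under 0.05. The one that fell was gene_11731, an alpha-2 subunit, at 36.2, 43.8 and 35.4 CPM in SHT, against 89.9, 82.4 and 101 CPM in CK, or -1.24 in log2FC (SE 0.184, adjusted p = 4.08e-04). This unigene is also in a list that the study chose on these libraries. The most abundant, gene_23502, a beta subunit, was at 478 ± 36.4 CPM in CK, 461 ± 45.7 CPM in MHT, and 459.6 ± 30.7 CPM in SHT (SD, n = 3), and its log2FC was -0.05 for MHT&CK and -0.06 for SHT&CK. Among 3 other G protein-coupled receptors 0 were DEGs in the comparisons by edgeR, with 1 at an unadjusted p under 0.05 in MHT&CK and 1 in SHT&CK. Of all unigenes 8.17% were DEGs in MHT&CK, 21.7% in SHT&CK and 5.65% in SHT&MHT. The most abundant of the 3, gene_7656, a lung 7-transmembrane receptor domain protein, had 0.65 (adjusted p = 0.0262) in SHT&CK.

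Kinases carry the signal between G protein and nucleus. By description 5 unigenes belonged to MAP kinase cascades, among them gene_23634, a hog1 kinase. The descriptions do not say that these 5 act in the pheromone response. Of the 5, 0 were DEGs by edgeR in the 3 comparisons, beside 8.17% of all unigenes in MHT&CK, 21.7% in SHT&CK and 5.65% in SHT&MHT. The log2FCs were -0.92 to 0.18 in SHT&CK. There 2 had an adjusted p under 0.05 but missed the fold threshold, both named after their values were seen. They were gene_21872, a MAP kinase Pmk1 (-0.92, adjusted p = 0.00534), and gene_14741, a mitogen-activated protein kinase (-0.70, adjusted p = 0.00836). The highest, gene_3411, had 0.18 (adjusted p = 0.510). In MHT&CK and in SHT&MHT 1 of the 5 had an unadjusted p under 0.05. The most abundant, gene_1014, a MAPK-activated kinase Srk1, had a log2FC of -0.30 (adjusted p = 0.303) in SHT&CK. Gene_26673, a PAK-type kinase that links small GTPases to the cascade, had -0.20 there (adjusted p = 0.482), and gene_1052, the regulatory subunit of the cAMP-dependent kinase, -0.32 (adjusted p = 0.154). Of 2 unigenes with casein kinase in their description, gene_24965 fell in SHT&CK with -1.01 (SE 0.213, adjusted p = 0.00324). That call was lost without CK replicate 3 (-0.93) or SHT replicate 3 (-0.93) and in a fit of SHT and CK alone (-0.99). Gene_1385, described as a casein kinase II regulatory subunit, had -0.82 (adjusted p = 0.00354) in SHT&CK.

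Transcription factors such as Ste12 act at the end of the pathway. Of 7 such unigenes, 2 fell and 0 rose in SHT&CK, beside 10.9% and 10.8% of all unigenes, and 0 were DEGs in the other comparisons by edgeR, with 2 at an unadjusted p under 0.05 in each. Those that fell were gene_3921 and gene_3922, described as MADS box factors, a family that works with Ste12 in yeast. Gene_3925, another MADS box unigene, has the same best match as gene_3921 and was not a DEG in SHT&CK (-0.57, adjusted p = 0.119). Gene_9839 and gene_24569, described as ste12, also share a best match, so the 7 are not all separate factors. Gene_3921 was at 227 ± 31.3 CPM in SHT, against 491 ± 10.4 in CK (SD, n = 3), which is -1.11 in log2FC (adjusted p = 8.88e-04), and its neighbour in ID gene_3922 had -1.21 (adjusted p = 8.20e-04). The 4 unigenes described as ste12 had log2FCs above 0 in SHT&CK, and gene_9842, the most abundant of them, was at 218 ± 81.1 CPM in SHT, against 157 ± 14.9 in CK (0.47, adjusted p = 0.173). Gene_24573, another of the 4 and named after its values were seen, was higher without overlap in both heat groups than in CK, with a log2FC of 0.93 (adjusted p = 0.0147) in MHT&CK and 0.87 (adjusted p = 0.00865) in SHT&CK, under the fold threshold. Gene_3921 and gene_3922 are also in a list that the study chose on these libraries.

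Homeodomain proteins include the products of the A mating-type locus of mushrooms, though the descriptions do not say whether these 2 are such. Gene_6918 was at 26.4, 15 and 22.1 CPM in CK, 16.3, 17.9 and 12.1 CPM in MHT, and 3.07, 3.79 and 5.92 CPM in SHT. Its log2FC was -2.31 in SHT&CK (SE 0.310, adjusted p = 2.37e-04) and -1.86 in SHT&MHT (SE 0.309, adjusted p = 0.00504), and SHT did not overlap either group. Gene_7013 was at 56.0, 51.5 and 47.9 CPM in SHT, against 141, 136 and 169 CPM in CK, and fell with -1.52 (SE 0.262, adjusted p = 0.00101). In MHT&CK it had -0.91 (adjusted p = 0.0316), and it was a DEG without MHT replicate 1 (-1.15, adjusted p = 0.0215) and with no other single library left out. Both homeodomain unigenes thus fell in SHT&CK, where 10.9% of all unigenes fell, and gene_6918 also in SHT&MHT, where 2.87% did.

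Pheromone processing was represented by 2 unigenes, gene_20129 and gene_20128, both described as a pheromone processing endoprotease of the kind that cleaves precursors in the secretory pathway. The descriptions do not say whether they act on the ligands of STE3-type receptors, so the supply of these ligands was not assessed. Gene_20129 was at 543, 475 and 476 CPM in CK, 417, 413 and 524 CPM in MHT, and 477, 572 and 495 CPM in SHT. Neither was a DEG in any comparison by edgeR, beside 8.17% of all unigenes in MHT&CK, 21.7% in SHT&CK and 5.65% in SHT&MHT. Of the 2, 0 had an unadjusted p under 0.05, with adjusted p from 0.217 to 0.867. No unigene was found under the words for pheromone precursors or for cell and nuclear fusion.

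Of 2 unigenes used as markers of fruiting bodies, gene_3547, a pleurotolysin, stood lower in SHT. It was at 1905, 1173 and 1507 CPM in CK, 583, 601 and 703 CPM in MHT, and 69.0, 195 and 36.3 CPM in SHT, and fell in SHT&CK with -3.93 in log2FC (adjusted p = 3.11e-04) and in SHT&MHT with -2.65 (adjusted p = 0.00935), while MHT&CK gave -1.28 (adjusted p = 0.0892). In MHT&CK it became a DEG without SHT replicate 2 (adjusted p = 0.00700) or SHT replicate 3 (0.0288), by DESeq2 (0.0252) and in a fit of those groups alone (0.00583). Gene_26920, a fruit body lectin, went the other way and rose in MHT&CK with 1.38 (adjusted p = 0.0141), a call lost without CK replicate 1 (adjusted p = 0.0700) or CK replicate 3 (0.0534), and in SHT&CK with 1.45 (adjusted p = 0.00420). The summed level of the pair was 1188 to 1914 CPM in CK, 608 to 746 in MHT and 65.0 to 243 in SHT, and neither was at 0 in a library. Its part in the values of the receptors was not tested.

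**Figure D5:**
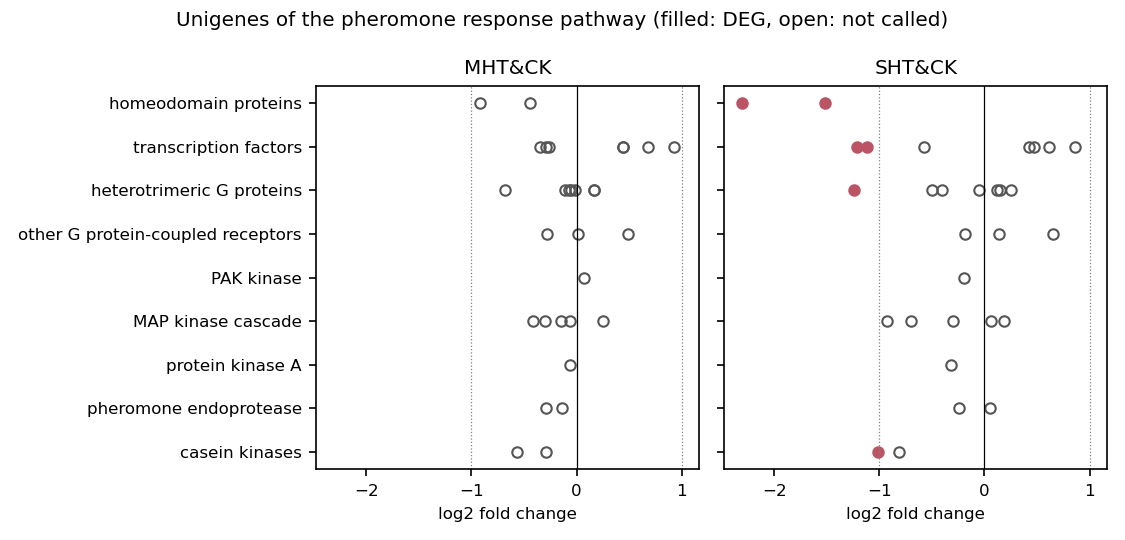
Log2FC (x axes) of the 30 pathway unigenes in MHT&CK and SHT&CK, 1 circle per unigene, in rows by role. Filled red circles are DEGs and open ones are not, and dotted lines mark -1 and 1. No circle is filled in MHT&CK and 6 are in SHT&CK, all below -1.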

How the data were processed

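RNA-seq counts of *P. tuoliensis* mycelia were analysed in 3 groups of 3 libraries. The authors used fastp for trimming, Bowtie2 to take out rRNA, HISAT2 for alignment to the genome of another strain of the species, and StringTie for assembly. They deposited raw counts for 13953 unigenes, each with its best protein match. Versions, strand use and the treatment of multi-mapped reads: not given in the sources used here. No sequence of the receptors was printed, as none was at hand.

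The 13018 unigenes with a nonzero count in every library were tested, after the zero-count filter of the paper. Counts were scaled by TMM and fitted with edgeR 4.0.16 (quasi-likelihood, robust) in R 4.3.3 with group as the single factor. Benjamini-Hochberg adjustment ran over all 13018. Profiles used log2 CPM with a prior count of 2, and SE is the log2FC over the root of its F statistic. The fit was tested on simulated data. With 3 plates of 1 strain per group, p-values measure the spread among these plates.

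The receptors and the 13 lists of word patterns were chosen with earlier results of these data known. By their descriptions alone, 8 matches were moved between lists and 6 dropped after the receptor counts had been seen. Named are the 3 receptors, the rest of the family, unigenes within 3 ID numbers, per list up to 4 DEGs and the most abundant other unigene, and per receptor the 3 most alike with an informative description. Alternatives were DESeq2 1.42.0, other scalings, filters and thresholds, 2-group fits, a replicate block, Spearman correlation, leaving out each library and summing copies.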

Additional observations from a re-analysis of the deposited data

How the results depend on the processing

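The 9 log2 fold changes of gene_18486, gene_7883 and gene_10118 kept their sign under every alternative run, and 158 of 159 values moved by less than 1 SD between replicates. The exception was gene_10118 in SHT&CK, at -1.41 when scaled by library totals only, a scaling that put the median of all unigenes at 0.28 in place of 0.01. Leaving out 1 library at a time gave -3.04 to -2.62 (MHT&CK), -4.59 to -4.20 (SHT&CK) and -1.78 to -1.42 (SHT&MHT) for gene_18486, and -1.17 to -0.80, -1.76 to -1.61 and -0.88 to -0.52 for gene_10118. With library totals the pathway DEGs numbered 1 in MHT&CK and 3 in SHT&CK, where gene_11731 (-0.98), gene_3921 (-0.84), gene_3922 (-0.95) and gene_24965 (-0.74) missed the fold threshold. Fits of the 2 groups compared gave 5 pathway DEGs in SHT&CK. With no minimum fold change they numbered 4 in MHT&CK, 12 in SHT&CK and 3 in SHT&MHT, and the DEGs among all unigenes 1940, 5225 and 1269. Leaving out 1 library gave 0 to 1 pathway DEGs in MHT&CK, 5 to 8 in SHT&CK (8 without SHT replicate 2) and 1 to 2 in SHT&MHT. Among the receptors outside the 3 it gave 2 to 3 DEGs in SHT&CK and 0 to 1 in SHT&MHT. For all unigenes in SHT&MHT it gave 278 (without SHT replicate 3) to 1428 (without MHT replicate 3). Signs turned for gene_23233 in SHT&CK (-0.40 to 0.43), gene_7886 in SHT&MHT (-0.12 to 0.40), gene_11942 in SHT&MHT (-0.0058 to 0.27) and gene_26920 in SHT&MHT (-0.30 to 0.37), none of them DEGs there, and the cause was not tested. By Spearman correlation 134 unigenes were above 0.95 with gene_18486 and 121 with gene_10118. With the replicate number as a block, gene_18486 had -2.90, -4.41 and -1.51, pathway DEGs numbered 0, 6 and 1, and no call changed among the tested receptors, the 6 pathway DEGs, gene_3547 and gene_26920. Same-numbered libraries had correlated deviations of -0.23 to 0.44 over 9 pairs. Differently numbered libraries were not compared, so this range cannot show whether the numbers pair the plates, and no label pairs them. Depth limits gene_23233, gene_11942, gene_6768 and gene_10118.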
